A study of Mus musculus with 2 samples.

Results

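The enzymes and carriers that break down amino acids and turn their nitrogen into urea were described in liver of adult mice labelled as knockouts of Fhl2, whose LIM-domain product docks onto transcription and signalling factors, against wild-type liver. The set lists 46 genes by symbol, and 42 of them had at least 1 probe set, called a probe here, annotated to that symbol alone. They are 42 of the 19938 genes that could be named in this way. A gene with several probes is given by the probe with the highest mean of both arrays. Of the other 4 genes, the argininosuccinate synthase gene Ass1 and the homocysteine-forming hydrolase gene Ahcy were on the array only through 2 and 3 probes shared with a predicted gene, and the glutaminase gene Gls2 and the serine dehydratase gene Sds were not analysed here.

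The knockout-labelled sample was 1 pool of left-lobe liver RNA of 3 male mice given as FHL2-/-, and its control was 1 pool from 3 male wild-type mice. All mice were 10 to 11 weeks old on a hybrid Black Swiss/129-SV/J background. Per the labels the knockout is an earlier-made line, with no cell type restriction stated. Each pool was hybridised to 1 Affymetrix array. Without replicates there is no p-value, and a difference holds for these pools, with the spread between mice unknown. Values are log2 levels, and a difference is knockout-labelled minus wild-type on that scale. Probes of the same gene repeat each other's measurement, and over 660 genes with several probes their differences had an SD of 0.143. That SD covers probe error, not animals or hybridisations.

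Fhl2 itself had a log2 level of 5.33 in the knockout-labelled pool and 5.30 in the wild-type pool on its 1 probe. Both values are below the level filter of 5.44 described further on, and the deleted exons are not named in the labels. For these reasons this probe checks nothing, and the name "knockout-labelled" is kept throughout. Hepatocyte markers, among them Alb and Ttr, lay at log2 levels between 10.83 and 13.67 in the knockout-labelled pool and between 10.68 and 13.74 in the wild-type pool, as the tissue label says. Their differences were between -0.07 and 0.15 over 9 of 10 listed genes. All 8 Kupffer cell markers were lower in the knockout-labelled pool, with a median difference of -0.19. They averaged 7.95 in that pool and 8.15 in the wild-type pool. Sinusoidal endothelial markers had a median difference of 0.13, with 6 of 7 above 0, and stellate cell markers one of 0.02, with 3 of 6 above 0. Of all genes past the level filter 59.5% were above 0. The lists for bile duct, lymphocytes, neutrophils, red cells, kidney, pancreas, muscle and fat each had at most 3 markers past the level filter given below. In such bulk tissue fewer cells of a type and less RNA per cell cannot be told apart, and the part of cell makeup in the differences below was not tested.

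Liver takes amino acids from the portal blood, moves their amino groups to glutamate and aspartate by transamination, and feeds ammonia and aspartate into the urea cycle, which starts in the mitochondrion and ends in the cytosol. The carbon skeletons pass through separate routes for aromatic, branched-chain and sulfur amino acids and for glycine, serine, histidine, lysine and proline. Many of these genes are expressed mainly in hepatocytes, the urea cycle most strongly near the portal vein, and they are known to respond to feeding, glucagon and glucocorticoids.

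As a group these genes lay close to the wild-type level, with a small excess on the higher side. Of the 42 genes, 34 were above 0 and 8 below, while 59.5% of the 11924 genes past the level filter were above 0, as were 65.4% of the 3880 genes whose level passed the 80th percentile. These shares are also the background for the counts above 0 by pathway and compartment further on. Their median difference was 0.09, against 0.04 for all genes past the filter and 0.05 for those past the 80th percentile. The level filter is a log2 level of 5.44, the 40th percentile of probes with 1 symbol, and all 42 genes passed it as well as the 80th percentile at 8.08. 35 of the 42 genes differed by no more than 0.2 in either direction, which is 83.3%, against 74.8% of all genes past the filter and 84.8% of those past the 80th percentile. By this measure the set was as close together as other genes of its level.

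**Figure D1:**
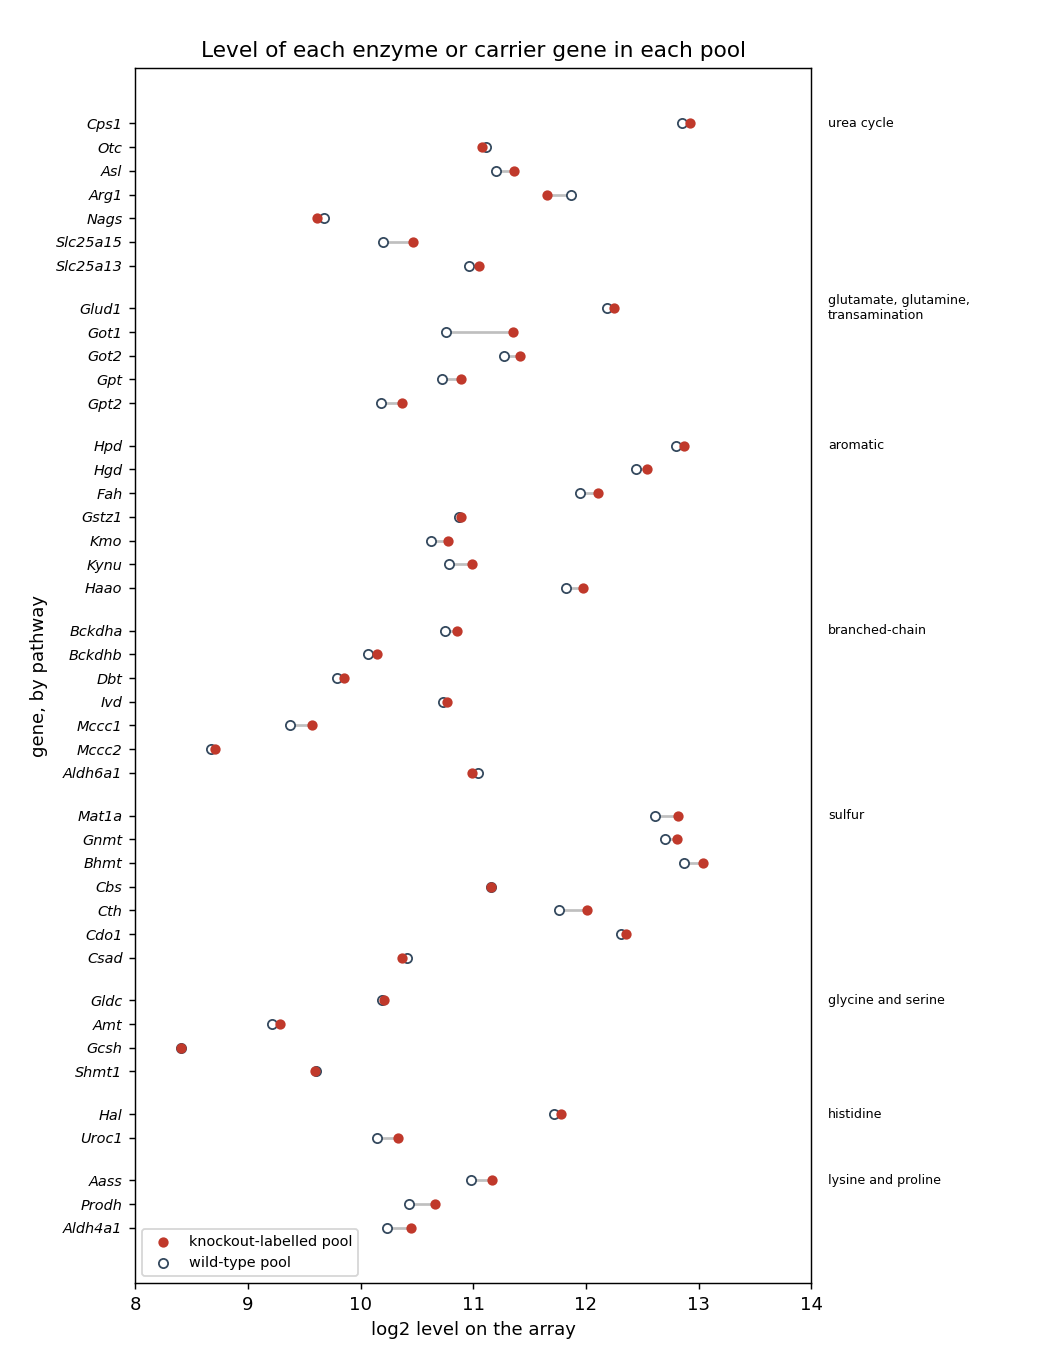
Log2 level of each of the 42 genes in the knockout-labelled pool (filled) and the wild-type pool (open), by pathway, with 1 array per pool. The pair of points nearly touches for most genes, and the widest gap is that of Got1, at 11.35 in the knockout-labelled pool and 10.76 in the wild-type pool.

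A single gene passed 1.5-fold on the higher side, the cytosolic aspartate aminotransferase gene Got1, where 0.621% of all genes past the filter and 0.438% of those past the 80th percentile did. No gene of the set was 1.5-fold lower, where 0.335% of all genes and 0.129% of those past the 80th percentile were. At 1.2-fold, 2 of the 42 were higher, Got1 and Slc25a15, where 8.66% of all genes and 5.10% of those past the 80th percentile were higher. At 1.2-fold 0 of the 42 were lower, where 6.16% of all genes and 2.76% of those past the 80th percentile were. The share past 1.2-fold on the higher side is thus near the background. Among all genes past the filter the shares at 1.2-fold were 12.7% higher and 4.32% lower after a shift of the arrays to a common median, and 6.52% and 7.11% after a lowess correction for the trend of the difference on level. In the set, the shift gave 4 genes at 1.2-fold higher, with Cth and Prodh added, and lowess left Got1 alone.

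**Figure D2:**
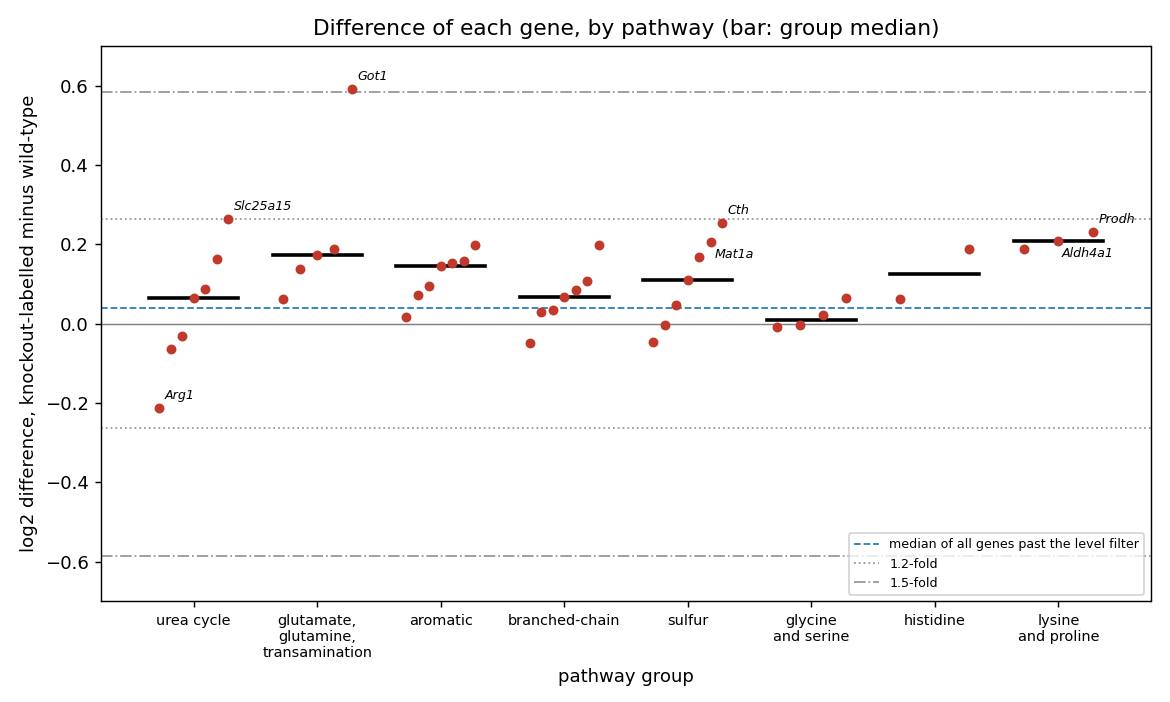
Log2 difference of each gene (points) and its group median (bars) by pathway, with 0, 1.2-fold and 1.5-fold marked by horizontal lines. Got1 stands alone at 0.59, all 3 genes for lysine and proline lie between 0.19 and 0.23, and Arg1 is the lowest at -0.21.

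The transaminases hold the gene with the greatest difference. Got1, which transfers the amino group of aspartate in the cytosol and is part of the malate-aspartate shuttle, had a log2 level of 11.35 in the knockout-labelled pool and 10.76 in the wild-type pool, a difference of 0.59 or 1.51-fold. Among the 11924 genes past the filter 68 had a greater positive difference. After the lowess correction Got1 was at 0.56, just under 1.5-fold. Its mitochondrial counterpart Got2 was at 11.41 in the knockout-labelled pool and 11.28 in the wild-type pool, a difference of 0.14, and its second probe gave 0.11. The difference of Got1 exceeded that of Got2 by 0.45, so the enzymes that catalyse the same reaction in different compartments had unlike values on these arrays. The SD between probes leaves out animals and hybridisations and is no test of this gap.

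Alanine aminotransferases, which move the amino group of alanine to make glutamate and pyruvate, did not show such a split. Cytosolic Gpt was at 10.89 in the knockout-labelled pool and 10.72 in the wild-type pool, a difference of 0.17. Mitochondrial Gpt2 was at 10.37 in the knockout-labelled pool and 10.18 in the wild-type pool, a difference of 0.19. Glutamate dehydrogenase Glud1, which releases ammonia from glutamate in the mitochondrion, was at 12.25 in the knockout-labelled pool and 12.18 in the wild-type pool, a difference of 0.06. All 5 genes of the group were above 0, with a median difference of 0.17, or 0.15 without Got1.

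**Figure D3:**
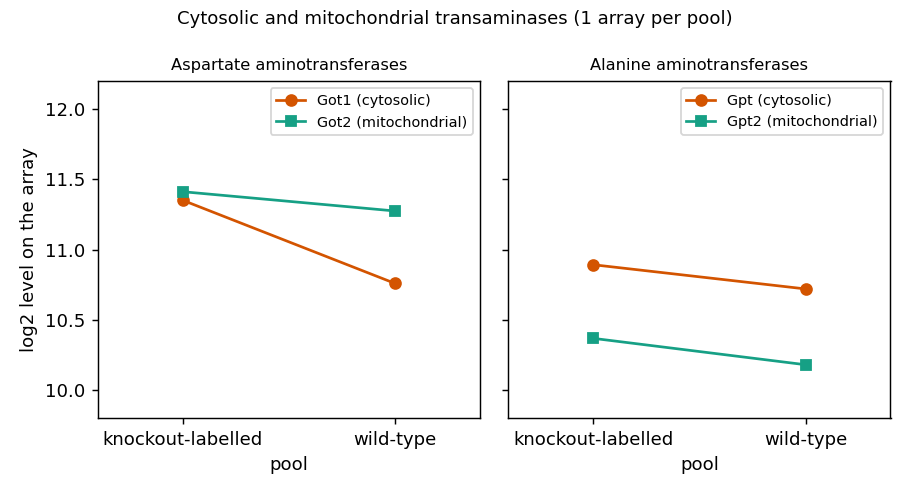
Log2 level of the cytosolic and mitochondrial aspartate aminotransferases (left) and alanine aminotransferases (right) in the knockout-labelled and wild-type pools, 1 array each; levels are to be read within a gene. The line of Got1 drops from the knockout-labelled pool to the wild-type pool by more than that of Got2, Gpt or Gpt2.

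The promoter of Got1 is shown beside that of Got2, since these paralogous enzymes differed most within a pair, and that of Aldh4a1 because proline breakdown genes lay together on the higher side. The sequences are RefSeq promoters of build GRCm38.p6, limited to the 250 bases before the annotated start and written 5′ to 3′ on the strand of the gene. Got1 is at chr19:43524606-43524855 on the minus strand, Got2 at chr8:95888402-95888651 on the minus strand and Aldh4a1 at chr4:139622644-139622893 on the plus strand. Capitals mark the match to TGATGNAA in Got1, to TATAAA in Got2 and to CCAAT in Aldh4a1, each searched on both strands.
Got1: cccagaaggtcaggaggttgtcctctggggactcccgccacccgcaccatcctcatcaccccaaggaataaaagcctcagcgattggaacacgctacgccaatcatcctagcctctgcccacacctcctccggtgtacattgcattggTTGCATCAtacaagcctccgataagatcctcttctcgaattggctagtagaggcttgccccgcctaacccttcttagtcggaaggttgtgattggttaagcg
Got2: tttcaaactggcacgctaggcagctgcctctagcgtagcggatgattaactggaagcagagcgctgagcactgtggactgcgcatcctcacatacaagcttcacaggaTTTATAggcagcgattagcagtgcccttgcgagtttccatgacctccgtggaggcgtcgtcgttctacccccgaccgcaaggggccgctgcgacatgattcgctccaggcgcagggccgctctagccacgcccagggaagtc
Aldh4a1: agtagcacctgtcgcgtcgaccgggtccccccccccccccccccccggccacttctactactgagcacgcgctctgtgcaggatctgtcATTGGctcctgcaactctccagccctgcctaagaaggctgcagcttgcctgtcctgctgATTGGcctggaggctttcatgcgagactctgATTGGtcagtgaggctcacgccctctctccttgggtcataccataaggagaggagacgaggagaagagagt

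The letters TGATGNAA belong to the composite element that C/EBP and ATF family dimers, ATF4 among them, are known to bind. In Got1 they stand on the reverse strand from 102 to 95 bases before the start. Promoters were found for 33 of the 42 genes, as 38 windows, and Got1 held the 1 match to TGATGNAA among them. That is 2.63% of the 38 windows, against 3.45% of all 32851 windows of the same length. Got1 was shown because of its difference, and a part of the match in that difference was not tested. The CCAAT box, bound by the factor NF-Y, was in 23 of the 38 windows (60.5%), against 33.8% of all windows and 35.4% of those of protein-coding genes. Got1 held 5 of them, and 0.213% of all windows hold at least 5. Aldh4a1 held 3, as did Mccc1 and Mccc2, Aldh6a1 and Ivd held 4, and Got2 held 0, while 2.79% of all windows hold at least 3. Aldh6a1 and Ivd were near 0, at -0.05 and 0.03. Prodh, the other proline breakdown gene of the set, at 0.23, and Slc25a15, at 0.26, held 0 CCAAT matches. A relation of these boxes to the differences was not tested. TATAAA was in 3 of the 38 windows, against 12.4% of all, the cAMP response half-site TGACG in 5, against 17.8%, the C/EBP letters TTGCNNAA in 3, against 9.56%, and the HNF1 half-site GTTAAT in 3, against 6.43%. A CCAAT match of Got1 ends directly beside the TGATGNAA match without overlap. A match in these letters is a description and not a bound site.

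The urea cycle genes did not all differ in the same direction on these arrays. Ornithine carrier Slc25a15, which brings ornithine into the mitochondrion and citrulline out of it, was at 10.46 in the knockout-labelled pool and 10.20 in the wild-type pool, a difference of 0.2631 against a 1.2-fold threshold of 0.2630. Arginase Arg1, which splits arginine into urea and ornithine, was at 11.66 in the knockout-labelled pool and 11.87 in the wild-type pool, a difference of -0.21. Arg1 was the lowest of the 42 genes, and 9.06% of all genes past the filter were lower still. The ends of the group therefore lay on opposite sides of 0.

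The steps between them had small differences. Carbamoyl phosphate synthetase Cps1, which commits ammonia to the cycle, was at 12.92 in the knockout-labelled pool and 12.86 in the wild-type pool, a difference of 0.07. Ornithine transcarbamylase Otc was at 11.08 in the knockout-labelled pool and 11.11 in the wild-type pool (-0.03), and Nags, which makes the activator of Cps1, at 9.61 in the knockout-labelled pool and 9.67 in the wild-type pool (-0.06). Argininosuccinate lyase Asl was at 11.36 in the knockout-labelled pool and 11.20 in the wild-type pool (0.16). The aspartate-glutamate carrier Slc25a13, which exports aspartate for the cycle, was at 11.05 in the knockout-labelled pool and 10.96 in the wild-type pool (0.09). Over the 7 measured genes the median difference was 0.07, with 4 above 0, and Otc turned to above 0 after the shift to a common median. Cps1 lies on chromosome 1, as Fhl2 and Kmo do.

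The 7 aromatic amino acid genes of the set were above 0 by small amounts, though Gstz1 was at -0.02 after the lowess correction. Of 8 other aromatic genes past the filter 6 were above 0, and the tryptophan dioxygenase Tdo2 was at -0.0009 and the aminotransferase Aadat at -0.04. The tyrosine route had differences of 0.07 for the dioxygenase Hpd, 0.10 for the homogentisate dioxygenase Hgd, 0.16 for the fumarylacetoacetate hydrolase Fah and 0.02 for the maleylacetoacetate isomerase Gstz1. Fah, the last enzyme of the route, was at 12.10 in the knockout-labelled pool and 11.95 in the wild-type pool. The kynurenine route of tryptophan had 0.15 for the monooxygenase Kmo, 0.20 for the kynureninase Kynu and 0.15 for the dioxygenase Haao. Kynu was at 10.99 in the knockout-labelled pool and 10.79 in the wild-type pool, the widest of the group. The 3 tryptophan genes had a median of 0.15 and the 4 tyrosine genes one of 0.08.

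Branched-chain amino acid genes had a median difference of 0.07 over 7 genes, 6 of them above 0. The subunits of the branched-chain ketoacid dehydrogenase, which commits these skeletons to oxidation, had like differences of 0.11 for Bckdha, 0.08 for Bckdhb and 0.07 for Dbt. Methylcrotonyl-CoA carboxylase of leucine breakdown has 2 subunits, and these had less alike values on these arrays, a gap that was not tested. Mccc1 was at 9.57 in the knockout-labelled pool and 9.37 in the wild-type pool, a difference of 0.20, while Mccc2 was at 8.71 in the knockout-labelled pool and 8.68 in the wild-type pool, a difference of 0.03. Isovaleryl-CoA dehydrogenase Ivd was at 0.03, and Aldh6a1, which acts late in valine breakdown, was the 1 gene below 0, at -0.05.

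Sulfur amino acid genes had unlike values between steps on these arrays, and the gaps between genes were not tested. Cth, which releases cysteine from cystathionine, was at 12.01 in the knockout-labelled pool and 11.76 in the wild-type pool, a difference of 0.25 and the third highest of the 42 genes. Mat1a, which makes S-adenosylmethionine in liver, was at 12.82 in the knockout-labelled pool and 12.61 in the wild-type pool (0.21), and Bhmt, which remethylates homocysteine with betaine, at 13.04 in the knockout-labelled pool and 12.87 in the wild-type pool (0.17). Bhmt had 3 probes, whose differences were 0.21, 0.23 and 0.17. The probe at 0.21 lay far lower, at 7.69 in the knockout-labelled pool and 7.48 in the wild-type pool. The glycine methyltransferase Gnmt was at 0.11. Cystathionine synthase Cbs, the step just before Cth, was at 11.16 in both pools, with a difference of -0.0039, the cysteine dioxygenase Cdo1 was at 0.05 and the sulfinate decarboxylase Csad of taurine synthesis at -0.05. The group median was 0.11 over 7 genes, with 5 above 0.

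Glycine and serine genes had the group median nearest to 0 on the deposited values. The glycine cleavage system had differences of 0.02 for the decarboxylase Gldc, 0.07 for the aminomethyltransferase Amt and -0.0025 for the carrier protein Gcsh. The cytosolic hydroxymethyltransferase Shmt1, which interconverts serine and glycine, was at 9.60 in both pools, with a difference of -0.0076. The median of these 4 genes was 0.01, and 2 were above 0. After the lowess correction it was -0.04, and that of the branched-chain genes was nearer to 0, at 0.02. Of histidine breakdown, the ammonia lyase Hal was at 0.06 and the urocanate hydratase Uroc1 at 0.19, with 10.33 in the knockout-labelled pool and 10.15 in the wild-type pool.

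Proline and lysine genes had a median of 0.21 over 3 genes, the highest of the 8 group medians. By means the group was at 0.21, below the glutamate and transamination group at 0.23. Proline dehydrogenase Prodh was at 10.66 in the knockout-labelled pool and 10.43 in the wild-type pool, a difference of 0.23. Aldh4a1, which turns the product of Prodh into glutamate, was at 10.45 in the knockout-labelled pool and 10.24 in the wild-type pool, a difference of 0.21. The lysine-splitting enzyme Aass was at 11.17 in the knockout-labelled pool and 10.98 in the wild-type pool, a difference of 0.19. Each of the 3 was below 1.2-fold. By compartment, the 22 mitochondrial genes of the whole set had a median of 0.08 and the 20 cytosolic genes one of 0.13, with 18 and 16 above 0, so the position of an enzyme did not separate the higher from the lower genes.

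Other genes of the same routes were counted from a list of 76 enzymes and transporters and 12 regulators that are not among the 46. Past the level filter were 62 of the enzymes and transporters, with a median difference of 0.12. Of these 62, 49 were above 0 (79.0%), where 59.5% of all genes past the filter were. At 1.2-fold 9 were higher and 1 was lower, where 8.66% and 6.16% of all genes past the filter were. The nitrogen handling genes among them held 7 of the 9 and also the lower one, out of 12 past the filter, and had a median of 0.30. The list was written with earlier results of these data known, so these counts describe the listed genes only. After the lowess correction Slc1a2 at 0.23 and Hykk at 0.24 were under 1.2-fold.

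**Figure D4:**
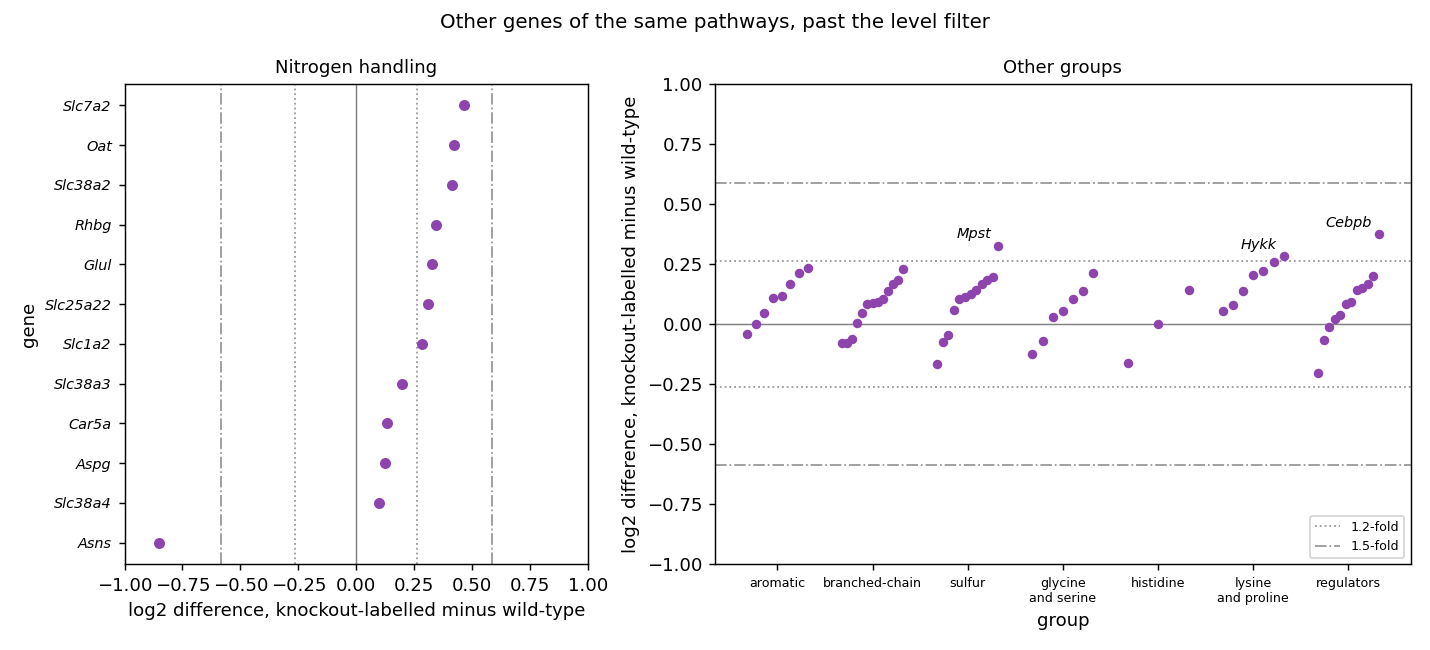
Log2 difference of other genes of the same routes past the level filter, each nitrogen handling gene on a line of its own (left) and the other groups as points (right), with 1.2-fold and 1.5-fold marked by lines. Of the nitrogen group, 7 of 12 lie past the 1.2-fold line on the higher side and Asns lies lowest at -0.85. The genes were listed with earlier results of these data known.

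The higher genes of the nitrogen group carry or convert amino acids, except Rhbg, which carries ammonium. Slc7a2, a carrier of arginine, lysine and ornithine, was at 10.56 in the knockout-labelled pool and 10.09 in the wild-type pool, a difference of 0.47. Oat, which turns ornithine into the precursor of proline and glutamate, was at 11.98 in the knockout-labelled pool and 11.56 in the wild-type pool, a difference of 0.42. The neutral amino acid carrier Slc38a2 was at 10.02 in the knockout-labelled pool and 9.61 in the wild-type pool, a difference of 0.41. These 3 exceed every gene of the 42 but Got1, as do the other higher nitrogen genes named next, on the probes used. Mpst, Hykk and Cebpb, given further on, do so too. The ammonium channel Rhbg was at 0.35, glutamine synthetase Glul at 0.33, the mitochondrial glutamate carrier Slc25a22 at 0.31 and the glutamate transporter Slc1a2 at 0.28. Glul had 2 probes, whose mean gave 0.185, under 1.2-fold. Asparagine synthetase Asns was at 6.64 in the knockout-labelled pool and 7.50 in the wild-type pool, which is 1.81-fold lower.

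Several of these are markers of hepatocytes around the central vein, at the opposite end of the lobule from most urea cycle expression. Of 9 pericentral markers, Glul, Oat, Rhbg and Slc1a2 included, 8 were above 0 with a median of 0.26, while 4 of 7 periportal markers were above 0 with a median of 0.02. Of all genes past the filter 59.5% were above 0. Glul, Oat, Rhbg and Slc1a2 were already named for passing 1.2-fold, so the pericentral median reuses their values and is no separate result. The other 5 pericentral markers were Gulo, the last enzyme of vitamin C synthesis in mouse, at 0.26, Cyp2e1 at 0.05, Axin2 at 0.04, Lgr5 at 0.01 and Cyp1a2 at -0.0007. Among the periportal markers Pck1, an enzyme of gluconeogenesis, was highest at 0.42 and Aldh1b1 lowest at -0.14. Neither list lay on a single level. Outside the nitrogen group, the sulfurtransferase Mpst was at 0.33 and the hydroxylysine kinase Hykk at 0.28. Of the 12 regulators 9 were above 0 (75%), against 59.5% of all genes past the filter. The transcription factor gene Cebpb was the 1 past 1.2-fold, where 8.66% of all genes past the filter were higher, so this count is near the background. Cebpb was at 8.89 in the knockout-labelled pool and 8.51 in the wild-type pool, a difference of 0.37. The glucagon receptor gene Gcgr was at 0.14, Hnf4a at 0.15, Cebpa at 0.02 and the glucocorticoid receptor gene Nr3c1 at 0.09. The 3 regulators below 0 were Foxo1 at -0.20, Ppargc1a at -0.07 and Sirt3 at -0.01.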

How the data were processed

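RNA of 2 liver pools was measured on 2 arrays, 1 per group. The deposited table holds log2 values for 28853 probes, made with RMA, Partek 6.4 and Affymetrix Expression Console 1.0 in an unstated order, per the submitters' processing notes. RMA normalisation hides a change in total RNA per cell and compresses differences of dim transcripts. The settings, like the build, were not given in the sources. The precision is limited by the number of arrays. Platform annotation gave 21789 probes 1 symbol, 1621 several and 5443 none. Of the first, 21698 matched GRCm38.p6 RefSeq genes by Entrez identifier.

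Differences were taken with Python 3.11.15 and pandas 2.3.3 on the deposited log2 values with no further scaling. Every gene of the set is named, as are listed genes of the same routes past 1.2-fold and the level filter. Members, lists and thresholds were chosen with earlier results of these data known. Other genes named (the zonation markers, Tdo2, Aadat, Aldh18a1, Hibadh, Foxo1, Ppargc1a, Sirt3, Gcgr, Hnf4a, Cebpa, Nr3c1, Alb, Ttr) and the split by compartment were picked after values were seen. Alternatives were a common median, lowess with a span of 0.3 (statsmodels 0.14.6), the mean over probes, no filter, the 80th percentile and means for medians. The steps were tested on simulated data with shifts larger than that of any gene of the set, counted at 1.5-fold. Noise was set below the observed spread, and recovery at 1.2-fold was not tested.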

Additional observations from a re-analysis of the deposited data

How the results depend on the processing

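No paired analysis was possible because each group holds 1 array, and no array could be left out. The 42 genes of the set and the 11 other named genes past 1.2-fold shifted by under 0.143, the SD between probes, under the common median shift, lowess and the mean over probes. That SD is larger than many of these differences and is no measure of stability. The median of the set was 0.09, with 0.13 under the shift, 0.06 under lowess and 0.11 as a mean. Under lowess the glycine and serine median turned from 0.01 to -0.04 and the branched-chain median was 0.02 in place of 0.07. Genes near 0 changed sign: Otc, Cbs, Gcsh and Shmt1 turned to above 0 under the shift, and Gstz1, Ivd, Mccc2 and Gldc to below 0 under lowess. Set genes at least 1.2-fold higher numbered 2, with 4 under the shift and 1 under lowess, and at 1.5-fold 1, with 0 under lowess. The median of the set was above that of all genes past the filter by 0.05 on the deposited values and by 0.06 under lowess. The shift adds the same amount to every gene and cannot change this gap. The mean over probes, also at 0.05, alters only Got2 and Bhmt in the set. Higher genes made up 58.5% of all genes past 1.2-fold (1033 against 734), 74.6% under the shift (1511 against 515) and 47.8% under lowess (778 against 848). Without the level filter 1839 were higher and 1920 lower at 1.2-fold, and 153 and 133 at 1.5-fold. Past the 80th percentile these were 198 and 107, and 17 and 5, since fewer genes are counted. Of the other genes of the same routes, under lowess Slc1a2 (0.23) and Hykk (0.24) were lost at 1.2-fold higher and Aldh18a1 (0.29) was gained, and 2 were lower, Asns and Foxo1 (-0.27). Past the 80th percentile 0 were lower at either fold, since Asns lies below that level. With the mean over probes the count at 1.2-fold higher stayed at 10, with Glul lost at 0.185 and the valine enzyme gene Hibadh gained at 0.47 through a second probe with log2 levels of 3.79 in the knockout-labelled pool and 2.96 in the wild-type pool.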
